A study of Mus musculus with 4 samples.

Results

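The Hox cluster genes were taken as every probe that is not a control and whose gene name on the array is Hoxa, Hoxb, Hoxc or Hoxd followed by a number. This gave 38 of 27745 gene names, on 50 of 41174 probes: 14 probes of 11 genes in the Hoxa cluster, 15 of 10 in Hoxb, 9 of 8 in Hoxc and 12 of 9 in Hoxd. On mm8, the genome build of the array, the probes reported here span 52092179 to 52188658 on chromosome 6 (Hoxa), 96012144 to 96183286 on chromosome 11 (Hoxb), 102756397 to 102864186 on chromosome 15 (Hoxc) and 74470787 to 74565841 on chromosome 2 (Hoxd). No probe was named Hoxc11. RNA was measured in 4 bones of male C57BL/6 mice at 35 days of age, with 1 Agilent one-colour array for each bone: the maxilla (upper jaw), the mandible (lower jaw), the ilium (pelvis) and the femur (thigh). The labels give no treatment, and strain, sex and age were shared by all groups. The study set jaw bones against bones of the trunk and limb. From the labels it is not known how many mice each RNA came from, nor whether marrow, muscle or teeth were removed.

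Hox genes encode homeodomain transcription factors and lie in 4 clusters in mammals, in which genes of the same number (paralogs) descend from 1 ancestral gene. Their order along the chromosome follows their order of use along the embryo, with low numbers in the hindbrain and neck and high numbers in the lumbar region, the tail and the distal limb. The jaw skeleton comes largely from cranial neural crest of the first arch, a population known for lacking Hox expression. The ilium and the femur come from mesoderm of the trunk and hindlimb, where the genes numbered 9 to 13 pattern the limb. Several Hox genes of the Hoxa and Hoxb clusters are also known to act in blood progenitors of the marrow.

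Values are log2 signals with the 75th percentile of each array set to 0, so that -4 is 4 log2 units below that percentile. A gene counts as detected in a bone when at least 1 of its probes was well above background by the scanner program's own call. Signals of different probes cannot be ranked against each other, so each probe was compared only across bones. On the 4 arrays 72.8% to 75.5% of 43379 spots were well above background, 0 were saturated, and the median SD between repeat spots was 0.06 to 0.07 log2 units (0.13 to 0.20 for probes below -4). The 75th percentile of the maxilla array was a signal of 809, against 1142, 1142 and 1208 for mandible, ilium and femur, and its lowest value well above background was -6.02, against -6.40, -6.46 and -6.53, so a bound in the maxilla is looser. All 4 lay on 1 slide, where slide position and bone cannot be told apart. The 11 measured genes of the osteoblast and osteocyte list were well above background in every bone, with summed linear signals of 682 and 630 in maxilla and mandible and 524 and 459 in ilium and femur (array 75th percentile = 1).

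Detection separated the jaw from the trunk and limb. Of the 38 Hox genes, 10 were detected in the maxilla and 11 in the mandible, against 27 in the ilium and 30 in the femur. Over all probes, counted singly and not by gene, the share detected was 74.3% for the maxilla and 73% for the mandible, against 72.3% for the ilium and 75.2% for the femur. A set of 16 genes was detected in ilium and femur and in neither jaw bone, among them Hoxa2, Hoxa4, Hoxa5, Hoxa9, Hoxa10, Hoxa11, Hoxb5, Hoxb7, Hoxb8, Hoxb9, Hoxc5, Hoxc6, Hoxc10, Hoxd9 and Hoxd10. Counted by probe, 22 of the 50 Hox probes showed that pattern. Of all 41174 probes, 1.78% showed it and 1.69% the reverse one. Hoxb8 belongs to the 16 only through different probes, 1 detected in the ilium (-6.19) and the other in the femur (-6.25).

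Detected in all 4 bones were 8 genes: Hoxa3, Hoxa6, Hoxa7, Hoxb3, Hoxb4, Hoxb6, Hoxc4 and Hoxd4. All have numbers from 3 to 7. Hoxa3 and Hoxb3 count as detected in the jaw through 1 of their 2 probes, the other being well above background in neither jaw bone. Hoxb2, Hoxc9 and Hoxd8 were detected everywhere but in the maxilla. Hoxb1 and Hoxb13 were detected in the maxilla alone, and Hoxc13, Hoxd3 and Hoxd12 in the femur alone. Hoxa13, Hoxc8, Hoxc12, Hoxd1, Hoxd11 and Hoxd13 were not well above background in any bone.

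**Figure D1:**
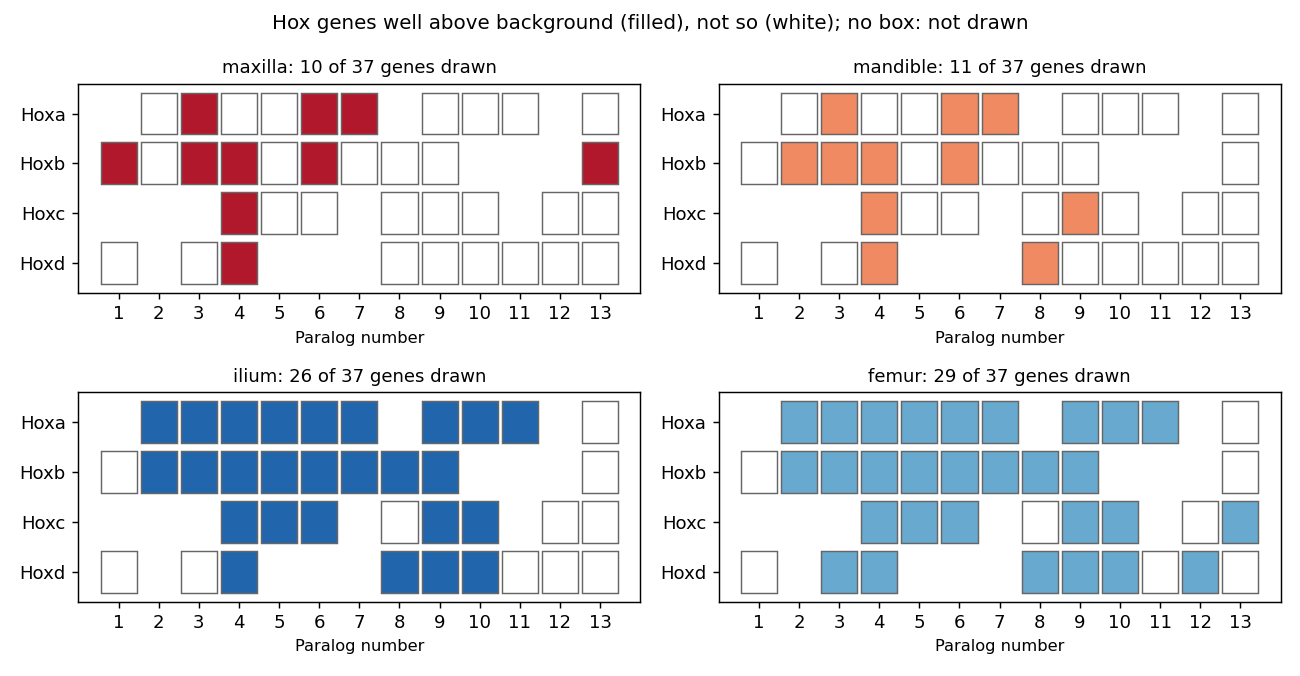
Detection of 37 of the 38 Hox genes in maxilla, mandible, ilium and femur, with the paralog number across and the cluster down; filled boxes mark genes with at least 1 probe well above background, white boxes the others, and no box means that no gene is drawn there. Filled boxes number 10 and 11 in maxilla and mandible and 26 and 29 in ilium and femur, and the rows for ilium and femur end at paralog numbers 9 to 11 except for Hoxc13 and Hoxd12 in the femur.

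By paralog number, the 12 genes numbered 1 to 4 gave 6 detected in the maxilla and 6 in the mandible, against 9 in the ilium and 10 in the femur. The 11 genes numbered 5 to 8 gave 3 and 4 in maxilla and mandible, against 10 and 10 in ilium and femur. Of the 7 genes numbered 9 and 10, 0 were detected in the maxilla and 1 (Hoxc9) in the mandible, against 7 in each of ilium and femur. Genes numbered 11 to 13, which act in the embryonic forearm, shank, hand and foot, were mostly below detection everywhere: of 8, 1 and 0 were detected in maxilla and mandible, against 1 and 3 in ilium and femur. By cluster, maxilla and mandible had 3 and 3 of 11 Hoxa genes against 10 and 10 in ilium and femur, and 5 and 4 of 10 Hoxb genes against 8 and 8. The Hoxc cluster had 1 and 2 of 8 in maxilla and mandible against 5 and 6 in ilium and femur, and the Hoxd cluster 1 and 2 of 9 against 4 and 6.

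Promoter windows, from 250 bases before the start of transcription to 50 after it, were available from RefSeq (GRCm38.p6) for 22 of the 38 genes, and all 38 were found by symbol in the RefSeq gene table. Of these, 5 are shown, to set side by side genes with the 3 detection patterns: Hoxa9 (chr6:52227321-52227620, minus strand) and Hoxa10 (chr6:52240805-52241104, minus strand), detected in ilium and femur alone, Hoxd4 (chr2:74721728-74722027, plus strand), detected in all 4 bones, and Hoxa13 (chr6:52260831-52261130, minus strand) and Hoxd13 (chr2:74667975-74668274, plus strand), detected in none. Each is written 5′ to 3′ on the gene's strand, and capitals mark every CG dinucleotide, which reads the same on both strands.
Hoxa9: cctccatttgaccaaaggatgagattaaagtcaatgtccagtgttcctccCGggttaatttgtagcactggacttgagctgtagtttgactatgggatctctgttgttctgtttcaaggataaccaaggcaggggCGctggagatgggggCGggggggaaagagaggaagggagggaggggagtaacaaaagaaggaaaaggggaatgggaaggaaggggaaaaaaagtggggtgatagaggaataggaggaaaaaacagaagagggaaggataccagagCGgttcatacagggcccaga
Hoxa10: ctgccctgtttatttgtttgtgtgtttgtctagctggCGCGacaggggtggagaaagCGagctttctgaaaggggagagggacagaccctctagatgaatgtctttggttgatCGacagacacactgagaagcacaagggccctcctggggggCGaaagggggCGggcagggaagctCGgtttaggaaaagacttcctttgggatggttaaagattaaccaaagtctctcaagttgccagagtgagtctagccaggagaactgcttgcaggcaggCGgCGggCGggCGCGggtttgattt
Hoxd4: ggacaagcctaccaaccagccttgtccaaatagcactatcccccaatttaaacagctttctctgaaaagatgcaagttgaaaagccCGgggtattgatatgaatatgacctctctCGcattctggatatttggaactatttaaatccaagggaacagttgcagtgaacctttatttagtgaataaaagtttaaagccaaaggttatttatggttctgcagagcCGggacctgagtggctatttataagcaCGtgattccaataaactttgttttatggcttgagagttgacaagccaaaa
Hoxa13: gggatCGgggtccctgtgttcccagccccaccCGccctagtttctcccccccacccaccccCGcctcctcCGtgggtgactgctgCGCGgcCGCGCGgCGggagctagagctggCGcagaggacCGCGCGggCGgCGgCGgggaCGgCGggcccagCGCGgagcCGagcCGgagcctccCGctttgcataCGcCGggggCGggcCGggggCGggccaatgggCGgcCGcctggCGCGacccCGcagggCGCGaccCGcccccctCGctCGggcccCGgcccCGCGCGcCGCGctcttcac
Hoxd13: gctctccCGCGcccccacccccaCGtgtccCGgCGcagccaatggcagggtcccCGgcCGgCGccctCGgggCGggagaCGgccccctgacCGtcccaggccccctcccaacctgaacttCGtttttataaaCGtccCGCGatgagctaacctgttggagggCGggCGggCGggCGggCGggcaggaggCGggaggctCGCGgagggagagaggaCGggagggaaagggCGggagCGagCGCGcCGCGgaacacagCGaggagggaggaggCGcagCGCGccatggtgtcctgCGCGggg

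The windows of Hoxa9 and Hoxd4 held 4 CG each, and 68.6% of the 32851 windows in the table held at least as many. Hoxa10 held 12 (39.6% of windows held as many). Hoxa13 held 45 and Hoxd13 held 37, counts that 1.93% and 5.58% of windows reached. The median was 7 over all windows and 13.5 over the 22 Hox windows, which ran from 4 to 45. Among all 22 the CG count did not follow detection in a simple order: Hoxd11 (4) and Hoxd1 (29) were detected in no bone, and Hoxa7 (9) and Hoxa6 (26) in every bone. The letters TATAAA, searched on both strands, were found in 13.6% of all windows and in 3 of the 22, those of Hoxb8, Hoxd4 and Hoxd13. The windows of Hoxb1, Hoxb8, Hoxc4 and Hoxd10 did not lie at the gene's own start in the RefSeq gene table. These letter counts describe the windows and were not related to signal by any test.

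The class comparison asked how jaw bones (maxilla and mandible) differ from trunk and limb bones (ilium and femur). The 34 Hox probes well above background on at least 2 arrays, for 26 genes, entered a limma fit with 31116 probes in all. By limma with Benjamini-Hochberg adjustment, 22 of the 34 (64.7%) were lower in the jaw at an adjusted p under 0.05, against 7.89% of all tested probes, and 0 were higher, against 4.92%. At an unadjusted p under 0.05 there were 29 of 34, all with a negative difference, against 35.1% of all probes. The 22 belong to 20 genes (16 genes are called when the probe of the highest mean stands for each gene). Of the 22 probes, 19 had passed the filter through ilium and femur alone, and of all 733 probes of that kind limma called 35.5%. Normexp background correction left 8 of the 34 called, with a median of -0.64, and limma called 0 when the ilium or the femur was left out (24 and 28 Hox probes had an unadjusted p under 0.05). The bone was the unit of the fit. These p-values therefore set the class difference against the spread of the 2 bones within a class, moderated over all tested probes. They say nothing of the spread between animals. For the 19 called probes well above background in neither jaw bone, the jaw part of that spread lies between signals not well above background. It is not a measured spread of expression between the jaw bones, which limits the SEs and p-values of those probes.

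Without a test, 27 of the 34 probes (79.4%) had both jaw bones at least 2-fold below both trunk and limb bones by measured signal, against 9.55% of all probes, and 0 were apart the other way, against 8.7%. With a bound in place of every signal not well above background (the lowest value well above background on that array, or the signal itself if higher), 22 of the 34 were lower by that rule, against 8.85% of all probes, and 0 higher, against 8.23%. The median difference of the 34 was -3.28 log2 units, and that of all tested probes -0.05. Many of these probes had to differ: 22 of the 34 passed the filter through ilium and femur alone, being well above background in neither jaw bone. Among those 22, limma called 19, and among all 733 probes of that kind it called 35.5%. Of the 9 Hox probes well above background in all 4 bones it called 2, those of Hoxa7 and Hoxb4, against 7.67% lower and 4.19% higher among all such probes. The remaining 16 Hox probes were not tested, 7 being well above background on 1 array and 9 on none.

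For a probe that was well above background in neither jaw bone, the jaw level is only a bound. Its fold is therefore given as "at least", the trunk and limb mean divided by a jaw floor, which averages for each array the lowest value well above background, or the probe's own value if higher. For the 22 such probes these folds ran from 1.14 to 25.7, with a median of 3.81. With these bounds in place of measured values, the median difference of the 34 probes was -1.93. The lowest value well above background is a working limit and not a strict one. In the mandible Hoxd12 had -6.09, above the -6.40 of that array, and was not well above background. The other differences and their SEs are those of the fit (2 bones per class).

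**Figure D2:**
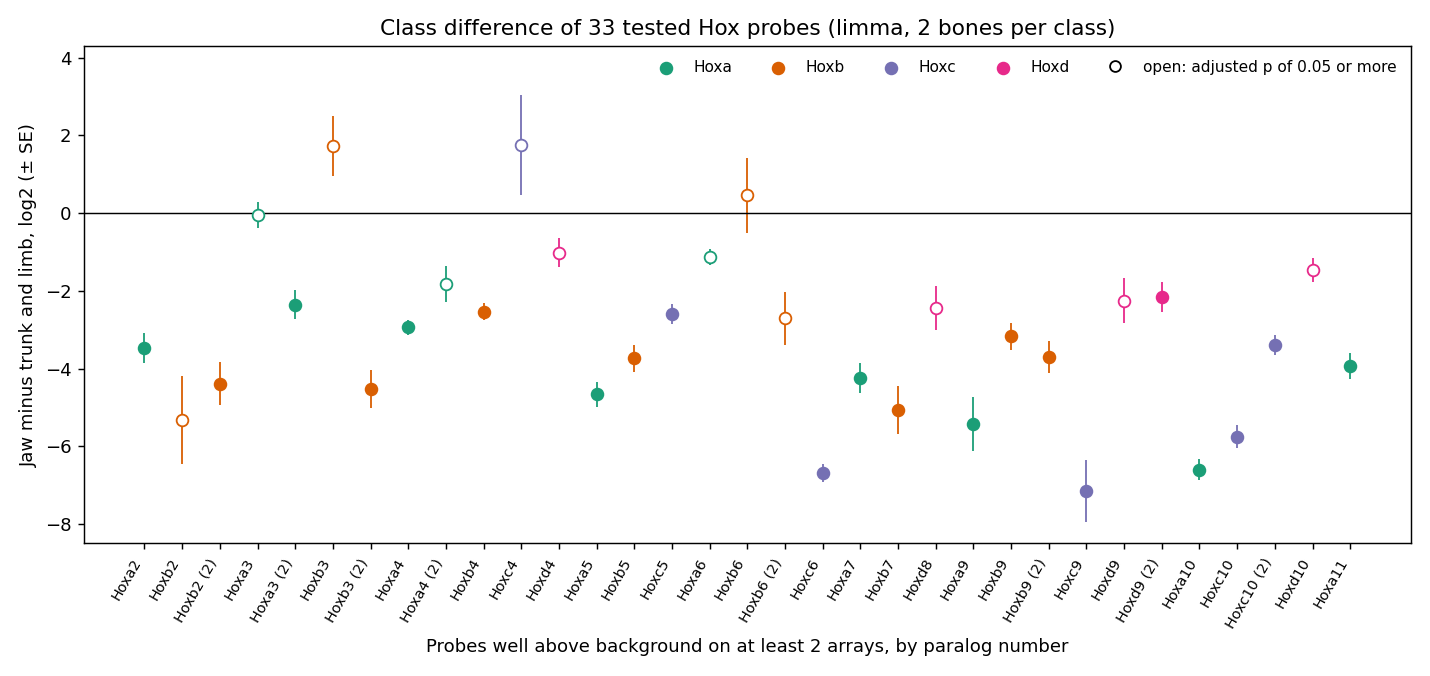
Jaw minus trunk and limb difference in log2 units (points, ± SE from limma, 2 bones per class) for 33 of the 34 Hox probes, ordered by paralog number and coloured by cluster, with "(2)" for a gene's second probe. Filled points passed an adjusted p of 0.05: 21 points, all below 0, and the 3 points above 0 are open.

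Markers of several other tissues also differed between the classes. Their counts stand against 7.89% of all tested probes called lower in the jaw and 4.92% called higher. Blood markers were lower in the jaw: 8 of 8 erythroid genes (summed linear signal 31.3 and 47.6 in maxilla and mandible, against 261 and 291 in ilium and femur), 7 of 8 neutrophil genes (285 and 201 against 640 and 634), 6 of 8 B lymphocyte genes (12.8 and 13.4 against 44.0 and 51.4) and 4 of 9 blood stem and progenitor genes (11.1 and 18.5 against 27.3 and 33.3), with 0 higher in any of the 4 lists. Their median differences were -3.33, -2.32, -2.24 and -1.14. The neutrophil gene that was not called, Ltf, had 7.30 and 5.26 in maxilla and mandible, against 7.13 and 7.16 in ilium and femur. Bright genes such as Ltf weigh most in a linear sum, here that of the maxilla. In whole bones, fewer cells of a type and less RNA per cell cannot be told apart. Of 12 skeletal muscle genes 3 were lower and 0 higher (summed signal 189 and 793 in maxilla and mandible, against 975 and 964 in ilium and femur; median -1.64). The 3 were Myl2 (-6.58), Myh7 (-6.09) and Tnni1 (-5.91), and the other muscle genes did not pass. Higher in the jaw were 6 of 7 tested genes of stratified epithelium (summed 67.3 and 102 in maxilla and mandible, against 4.40 and 4.48 in ilium and femur; median 6.69) and 5 of 7 of tooth matrix (summed 88.4 and 262 against 0.38 and 0.18; median 9.54), with 0 lower in either list. Of 7 tested cartilage genes 1 was higher and 0 lower, with a median of -0.32. Of 11 osteoblast and osteocyte genes 0 passed in either direction (limma; 3 had an unadjusted p under 0.05; median 0.72). The part of these tissues in the Hox difference was not tested.

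The Hoxa genes gave the largest number of calls, 9 of 12 tested probes, with a median difference of -3.43 (-1.83 with bounds). Limma called 7.89% of all tested probes lower in the jaw, and 35.5% of those well above background in ilium and femur and neither jaw bone. The counts of each cluster stand against these shares. Hoxa10, a regulator of the lumbosacral spine and the upper hindlimb, had -7.95 in the maxilla and -8.30 in the mandible, against -1.31 and -1.73 in ilium and femur. Both jaw values were not well above background, and the trunk and limb bones were at least 25.7-fold higher (difference -6.60 ± 0.27; limma adjusted p = 0.0306, the smallest that any probe reached). Hoxa9, known for limb patterning and for its part in blood progenitors and leukaemia, had -8.28 and -6.51 in maxilla and mandible, against -1.68 and -2.23 in ilium and femur, at least 19.1-fold (limma adjusted p = 0.0321). Hoxa7 was detected in every bone: -4.77 and -3.92 in maxilla and mandible, against 0.11 and -0.32 in ilium and femur, a difference of -4.24 ± 0.39 (limma adjusted p = 0.0306). In each of the 3 genes both jaw values lay at least 2-fold below both trunk and limb values by measured signal, as for 9.55% of all tested probes. Hoxa10 and Hoxa9 passed the filter through ilium and femur alone.

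Hoxa5, which patterns the neck and upper trunk, had -8.18 and -8.57 in maxilla and mandible, against -3.41 and -4.02 in ilium and femur, at least 5.62-fold. Hoxa11, needed for the zeugopod (forearm and shank), had -8.01 and -8.41 in maxilla and mandible, against -4.62 and -3.94 in ilium and femur, at least 3.82-fold. Hoxa2, which sets the identity of the second arch, had -8.22 and -8.61 in maxilla and mandible, against -4.53 and -5.35 in ilium and femur, at least 2.41-fold (limma adjusted p = 0.0306). Hoxa5, Hoxa11 and Hoxa2 passed the filter through ilium and femur alone. Hoxa6 was detected everywhere, with -5.22 and -5.46 in maxilla and mandible, against -4.30 and -4.11 in ilium and femur. Its difference of -1.13 ± 0.22 did not pass (limma adjusted p = 0.0519).

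In the Hoxb cluster 7 of 11 tested probes were called, with a median of -3.70 (-2.21 with bounds). Hoxb7 had -7.64 and -6.39 in maxilla and mandible, against -1.45 and -2.45 in ilium and femur, at least 19.1-fold (limma adjusted p = 0.0312). Hoxb4, known for expanding blood stem cells when overexpressed, was detected in all 4 bones, with -4.91 and -4.88 in maxilla and mandible, against -2.21 and -2.52 in ilium and femur (difference -2.53 ± 0.22; limma adjusted p = 0.0306). For both genes the jaw values lay at least 2-fold below those of ilium and femur by measured signal, as for 9.55% of all tested probes. Hoxb7 passed the filter through ilium and femur alone. In trunk and limb bones Hoxb5 was at least 3.08-fold higher, and the 2 probes of Hoxb9, a gene of the thoracic region, at least 3.69- and 3.80-fold. The probes of Hoxb5 and Hoxb9 also passed the filter through those bones alone.

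Of the Hoxc probes 5 of 6 were called, with a median of -4.57 (-2.92 with bounds). Hoxc9, which acts in the thoracic region, had -8.22 in the maxilla and -6.14 in the mandible, against 0.17 and -0.23 in ilium and femur. It was well above background in the mandible and not in the maxilla, so its fitted difference of -7.15 ± 0.79 (limma adjusted p = 0.0306) is not exact. Hoxc6, a gene of the upper trunk and forelimb level, had -8.19 and -8.35 in maxilla and mandible, against -1.40 and -1.76 in ilium and femur, at least 24.7-fold (difference -6.69 ± 0.24). The lumbar and hindlimb gene Hoxc10 was called by both of its probes, at least 18.5- and 3.11-fold. Hoxc5 lay near the limit of detection, with -5.70 and -6.02 in ilium and femur, and was at least 1.27-fold higher there. The probes of Hoxc5, Hoxc6 and Hoxc10 passed the filter through ilium and femur alone.

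In the Hoxd cluster 1 of 5 tested probes was called, with a median of -2.16 (-1.12 with bounds). Hoxd4 was detected in every bone, with -3.68 and -3.46 in maxilla and mandible, against -2.11 and -3.00 in ilium and femur. Its difference of -1.02 ± 0.38 did not pass (limma adjusted p = 0.154). Hoxd8 had -6.40 and -5.35 in maxilla and mandible, against -2.91 and -3.95 in ilium and femur (-2.44 ± 0.57; limma adjusted p = 0.0699), a difference that is not exact because the maxilla holds only a bound. Of the 2 probes of Hoxd9, a gene of the lumbar region and the upper limb, 1 was called (-2.16 ± 0.38; limma adjusted p = 0.0463) and the other had a similar difference that did not pass (-2.25 ± 0.59; limma adjusted p = 0.0846). Hoxd10 gave -1.46 ± 0.31 (limma adjusted p = 0.0617). The jaw levels of these 3 probes are only bounds, and the signal of ilium and femur was at least 2.17-fold higher for the called Hoxd9 probe, 4.77-fold for the other and 1.70-fold for Hoxd10. The late Hoxd genes of the hand and foot showed little signal: Hoxd11 and Hoxd13 were not well above background in any bone, and Hoxd12 was detected in the femur (-5.36) and had -6.70, -6.09 and -6.04 for maxilla, mandible and ilium. No test compared the clusters with each other.

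**Figure D3:**
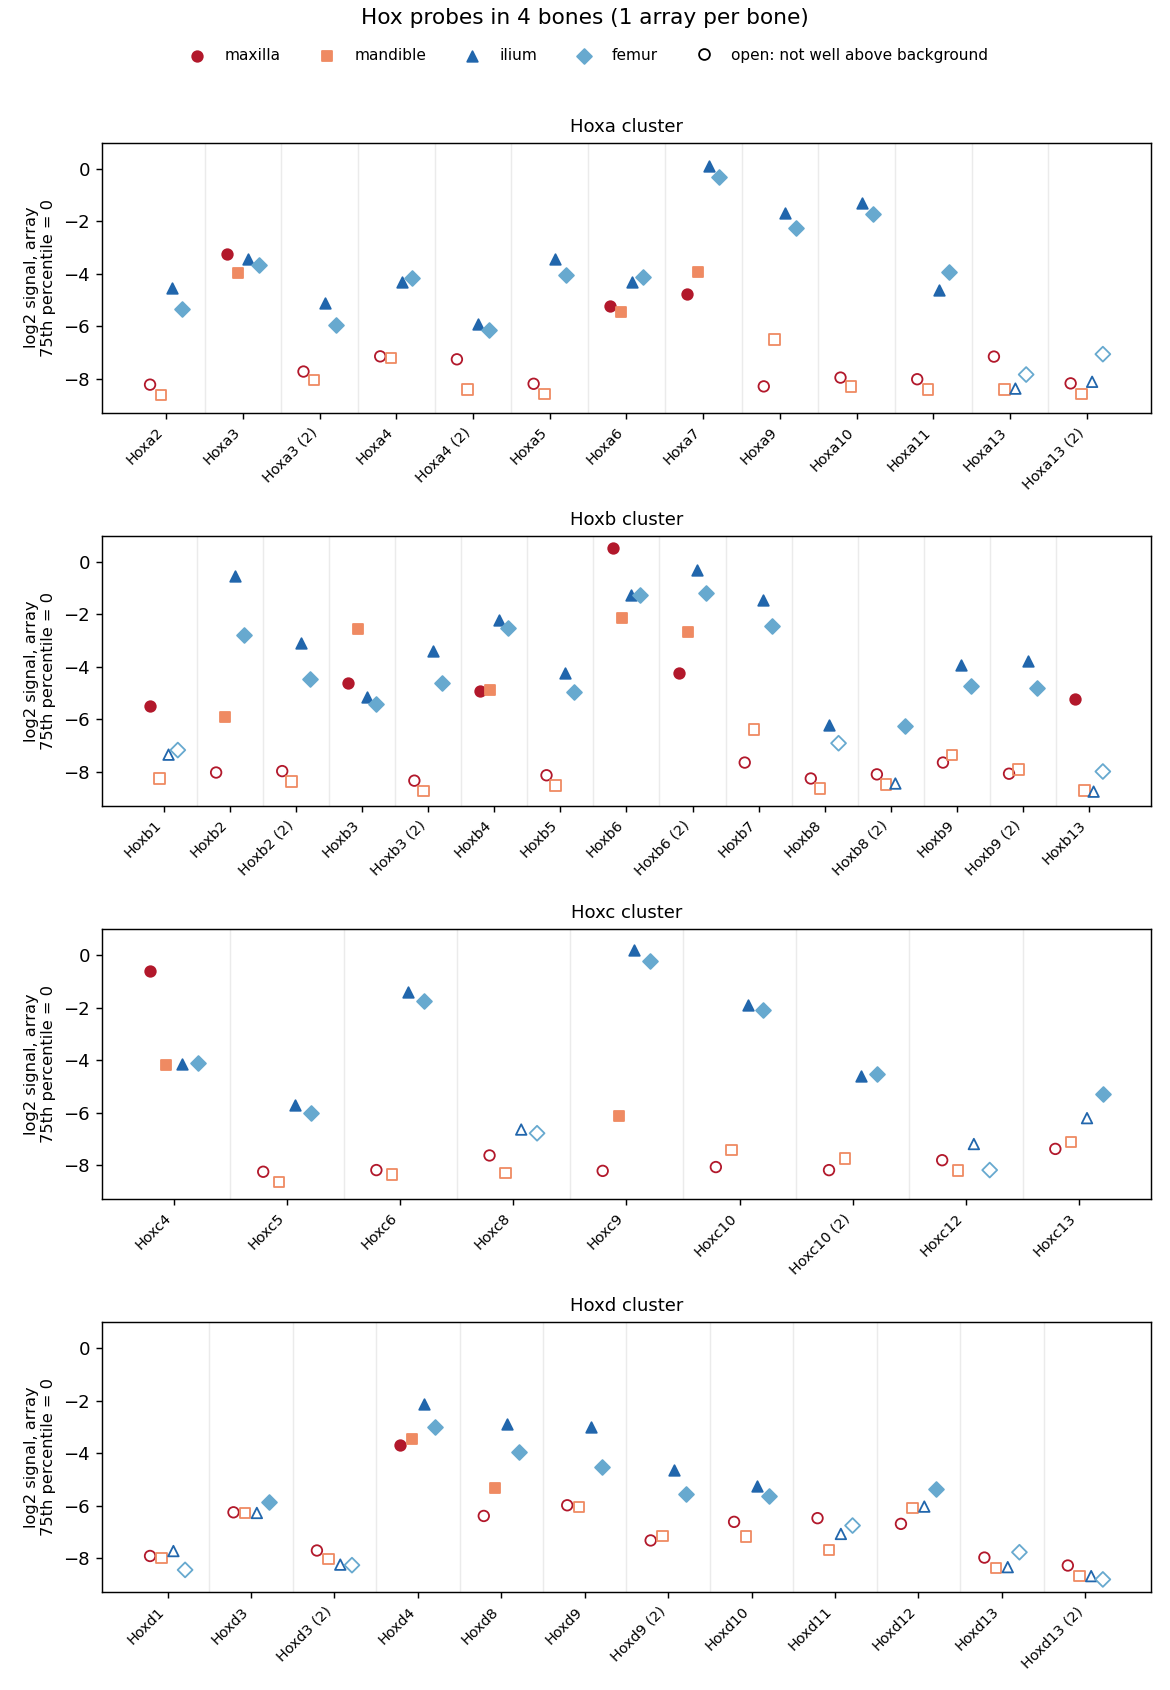
Log2 signal (array 75th percentile = 0) of 49 of the 50 Hox probes in maxilla, mandible, ilium and femur, 1 array each, in a panel per cluster; open symbols were not well above background, and "(2)" marks a gene's second probe. Jaw symbols of the Hoxa, Hoxb and Hoxc panels mostly lie open below -6 while ilium and femur lie filled above them, and a detected jaw bone is the highest for a probe of Hoxa3, Hoxb1, Hoxb3, Hoxb6, Hoxb13 and Hoxc4.

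By paralog number, limma called 7 of 13 tested probes numbered 1 to 4 (median difference -2.53), 6 of 10 numbered 5 to 8 (-3.22) and 8 of 10 numbered 9 and 10 (-3.55). With bounds the medians were -1.27, -2.47 and -2.09, in which the order of the last pair is turned round. The 1 tested probe above 10, Hoxa11, was called too. Over all tested probes limma called 7.89% lower in the jaw, and 35.5% of those well above background in ilium and femur and neither jaw bone. The number groups hold such probes in unequal parts, and no test compared the groups.

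Among the 34 probes, 3 had a positive difference, and none of them passed. Hoxc4 was high in 1 bone, with -0.60 in the maxilla, against -4.17, -4.16 and -4.11 for mandible, ilium and femur (class difference 1.75 ± 1.30; limma adjusted p = 0.397). A Hoxb6 probe was likewise highest in the maxilla, with 0.53 there and -2.13 in the mandible, against -1.26 and -1.24 in ilium and femur (0.45 ± 0.97; limma adjusted p = 0.766). Without the maxilla, which leaves the mandible as the lone jaw array, the difference was -0.035 for Hoxc4 and -0.88 for this Hoxb6 probe. A Hoxb3 probe was highest in the mandible, with -4.59 and -2.54 in maxilla and mandible, against -5.15 and -5.43 in ilium and femur (1.73 ± 0.77; limma adjusted p = 0.204). The array's annotation of that Hoxb3 probe also lists an mRNA of Hoxd3.

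Of the 38 genes, 12 had 2 probes and 26 had 1. Of the 8 genes with 2 tested probes, 4 had probes more than 2 log2 units apart in the class difference: Hoxa3, Hoxb3, Hoxb6 and Hoxc10. For Hoxa3 (chromosome 6, mm8), the probe at 52099328 to 52099387 was lower in the jaw, at least 1.61-fold (-2.36 ± 0.37; limma adjusted p = 0.0407), while that at 52099994 to 52100053 gave -3.24 and -3.97 in maxilla and mandible, against -3.44 and -3.67 in ilium and femur, which overlap. For Hoxb3 (chromosome 11), the probe at 96163778 to 96163837 gave -8.33 and -8.73 in maxilla and mandible, against -3.40 and -4.59 in ilium and femur, at least 4.64-fold (limma adjusted p = 0.0306), the opposite direction to the probe at 96161890 to 96161949 described above. For Hoxb6 (chromosome 11), the probe at 96117339 to 96117398 had -4.24 and -2.68 in maxilla and mandible, against -0.29 and -1.20 in ilium and femur (-2.71 ± 0.67; limma adjusted p = 0.0785), while the probe at 96115057 to 96115116 was the one highest in the maxilla. Which transcripts each probe reads was not tested. The number of Hox genes called lower in the jaw was 16 of 26 with the probe of the highest mean standing for a gene, 19 with that of the lowest mean and 20 with any probe.

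The Hoxa4 probe at 52119380 to 52119439 had -7.14 and -7.20 in maxilla and mandible, against -4.30 and -4.16 in ilium and femur, at least 3.95-fold. Hoxa4 gave differences of -2.94 ± 0.19 (limma adjusted p = 0.0306) and -1.81 ± 0.46 (limma adjusted p = 0.082) by its 2 probes, with the second at least 1.14-fold higher in ilium and femur. The Hoxb2 probe at 96169898 to 96169957 on chromosome 11 had -8.02 and -5.92 in maxilla and mandible, against -0.52 and -2.79 in ilium and femur (-5.32 ± 1.13, not exact, with only a bound in the maxilla; limma adjusted p = 0.0608). The other Hoxb2 probe, at 96166636 to 96166695, was called (-4.39 ± 0.55; at least 5.41-fold, as the jaw holds only a bound; limma adjusted p = 0.0319), but it is placed on the strand opposite to the other Hoxb probes, and whether it reads the Hoxb2 mRNA was not tested.

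**Figure D4:**
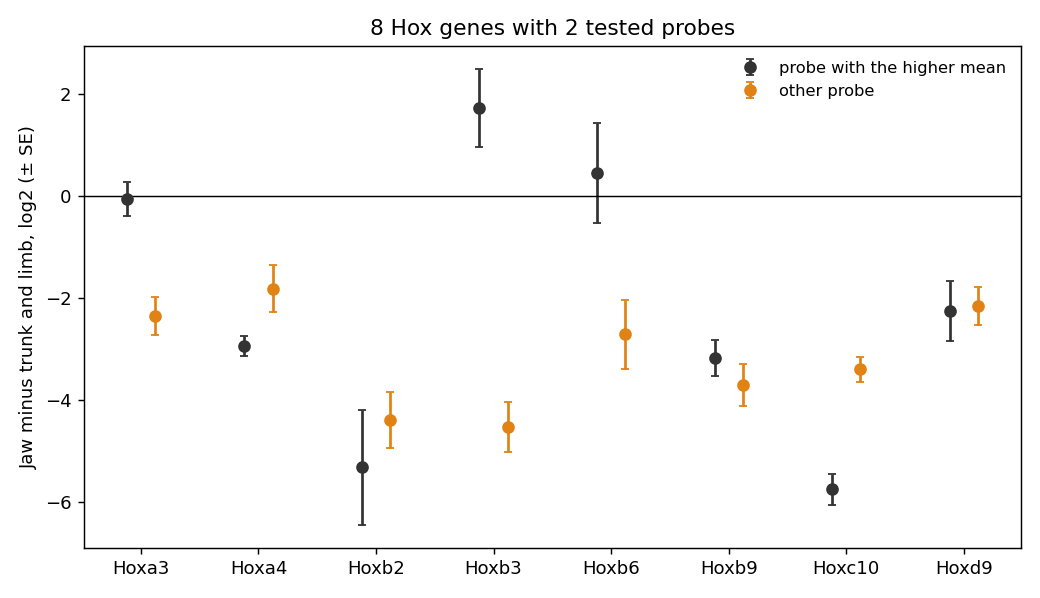
Jaw minus trunk and limb difference in log2 units (± SE from limma, 2 bones per class) for 8 Hox genes with 2 tested probes; black is the probe with the higher mean and orange the other probe. The pairs of Hoxa3, Hoxb3 and Hoxb6 differ by 2.30, 6.26 and 3.17, with the black point the higher one, and that of Hoxc10 by -2.36.

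Between ilium and femur, with 1 array each and no test, most Hox signals were higher in the ilium. Of the 34 probes well above background in both bones, 28 (82.4%) were higher in the ilium, against 40.3% of 29363 probes in all. The median ilium minus femur difference was 0.49 log2 units for Hox probes and -0.06 for all, and the median absolute difference 0.58 and 0.18. Hoxb2 differed most, by 2.27, with -0.52 in the ilium and -2.79 in the femur, and its opposite-strand probe gave 1.39. Hoxd9 followed with 1.55 by the probe at 74500458 on chromosome 2, then Hoxb3 with 1.19, Hoxd8 with 1.05 and Hoxb7 with 1.00. These 6 probes were at least 2-fold higher in the ilium, against 2.13% of all probes (also 6 with bounds, against 1.84%). By measured signal a single Hox probe, of Hoxb8, was 2-fold lower in the ilium, against 2.33% of all probes (0 with bounds, against 1.16%), and it was not well above background there, which leaves the femur at least 1.16-fold higher. The other Hoxb8 probe was at least 1.26-fold higher in the ilium.

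By cluster the median ilium minus femur difference was 0.43 for Hoxa (9 of 12 probes higher in the ilium), 0.91 for Hoxb (10 of 11), 0.24 for Hoxc (4 of 6) and 0.90 for Hoxd (5 of 5). By number it was 0.76 for paralogs 1 to 4 (11 of 13), 0.52 for 5 to 8 (8 of 10) and 0.49 for 9 and 10 (9 of 10). Hoxa11 was the other way, at -0.68, with -4.62 in the ilium and -3.94 in the femur. The genes detected in the femur and not in the ilium were Hoxc13, at least 1.87-fold higher in the femur, Hoxd12, at least 1.60-fold, and Hoxd3, at least 1.35-fold. Of these, Hoxc13 and Hoxd12 carry high numbers, as does Hoxa11.

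**Figure D5:**
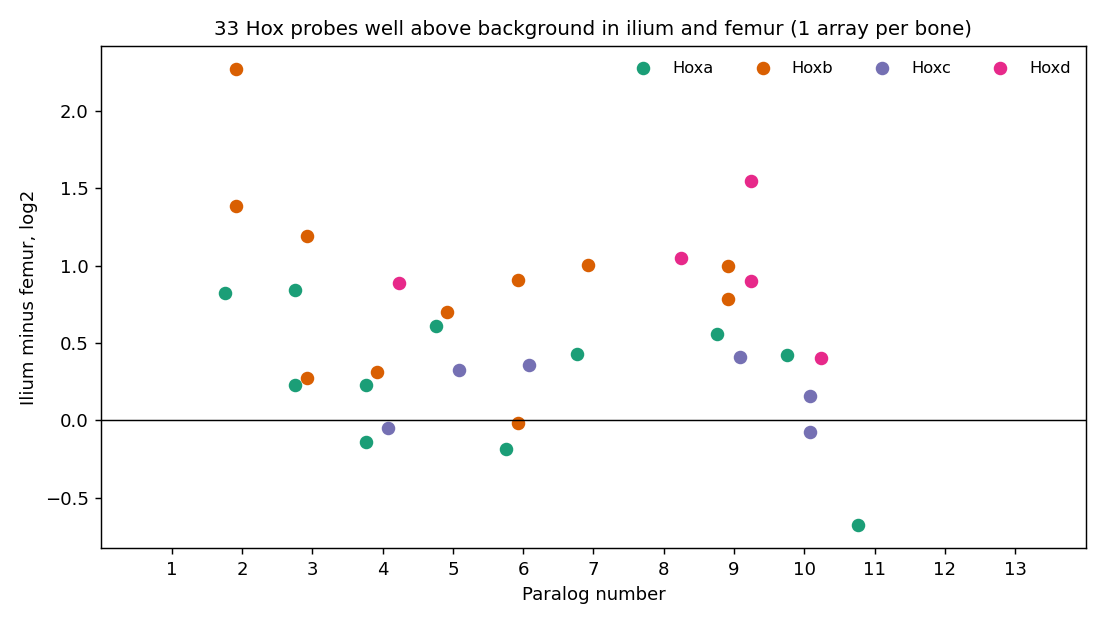
Ilium minus femur difference in log2 units for 33 of the 34 Hox probes well above background in both bones, by paralog number and coloured by cluster, 1 array per bone. Points above 0 (27) are higher in the ilium; Hoxb2 is highest at 2.27 and Hoxa11, at number 11, lowest at -0.68.

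The cartilage list, which marks growth plates and joint surfaces, summed to a linear signal of 54.9 in the ilium and 20.4 in the femur. The erythroid list summed to 261 in the ilium and 291 in the femur, and the blood stem and progenitor list to 27.3 and 33.3. The part of these cells in the ilium and femur difference was not tested.

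Between maxilla and mandible, also with 1 array each and no test, few Hox probes could be compared. The counts and differences here are by measured signal. In both, 9 were well above background, 4 of them higher in the maxilla, and the median absolute difference was 0.85 against 0.41 for all probes. Counting probes detected in the brighter bone, 4 were at least 2-fold higher in the maxilla (14.8% of all probes were): Hoxc4 (3.57), Hoxb13 (3.49), Hoxb1 (2.77) and the Hoxb6 probe at 96115057 (2.66). The 5 that were at least 2-fold lower in the maxilla (8.35% of all probes) were the Hoxb2 probe at 96169898 (-2.10), Hoxc9 (-2.08), the Hoxb3 probe at 96161890 (-2.06), the Hoxb6 probe at 96117339 (-1.55) and Hoxd8 (-1.05). With bounds 3 probes were 2-fold higher in the maxilla (14% of all probes) and 2 were lower (7.46%). Hoxb1 and Hoxb13 were not well above background in the mandible, nor Hoxb2, Hoxc9 and Hoxd8 in the maxilla, so their differences are not exact: with the bound, the mandible was at least 1.07-fold higher for Hoxb2 and at least 1.60-fold for Hoxd8, and no fold holds for Hoxc9. The 2 Hoxb6 probes run in opposite directions between the jaw bones.

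Hoxb1, a gene of the hindbrain, was printed in 10 spots. All 10 were well above background in the maxilla (-5.49 ± 0.21, SD over spots), against 0 of 10 for the mandible, 0 of 10 for the ilium and 1 of 10 for the femur. The repeat spots show technical error within an array only. As the mandible holds only a bound, the maxilla was at least 1.88-fold higher than the mandible. Hoxb13, known from the tail and prostate, had -5.22 in the maxilla against -8.71, -8.75 and -7.98 in mandible, ilium and femur, at least 2.27-fold above the mandible.

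Ttll6, which encodes a tubulin-modifying enzyme of cilia and whose probe lies 30.6 kb beyond the Hoxb13 end of the cluster, was also high in the maxilla: 0.56, against -5.10, -6.20 and -5.38 for mandible, ilium and femur (it was singled out after its values were seen). The list of ciliated and nasal epithelium, added after the data were seen, summed to a linear signal of 373 in the maxilla, with 8 of its 8 measured genes well above background. For mandible, ilium and femur its sums were 0.71, 0.64 and 0.35, with 7, 6 and 4 of the 8 genes well above background. Between the classes limma called 0 of its 7 tested genes (0 at an unadjusted p under 0.05), with a median of 5.61 and 1 gene lower in the jaw. The part of such tissue in the maxilla's Hox signals was not tested.

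Other transcripts inside the clusters were few. The array holds 9 further probes between the outermost Hox probes of a cluster, of which 3 were tested and 2 were lower in the jaw by limma. Both were well above background in ilium and femur alone, a kind of probe of which limma called 35.5% over all genes, and both lie in the Hoxa cluster: 2700086A05Rik had -8.19 and -8.59 in maxilla and mandible, against -4.18 and -4.34 in ilium and femur, at least 3.86-fold (limma adjusted p = 0.0306), and 5730446D14Rik at least 1.20-fold higher in ilium and femur (limma adjusted p = 0.0365). Within 150 kb outside the clusters, 1 of 20 tested probes was lower in the jaw, AK084656 beyond the Hoxc4 end, at least 6.85-fold (limma adjusted p = 0.0306), and 0 were higher. AK084656 too was well above background in ilium and femur alone. Over all tested probes limma called 7.89% lower and 4.92% higher. This search by position was chosen after values were seen. Of the list of named genes that flank the clusters, 1 of 10 tested was lower in the jaw, Skap2 (-1.71 ± 0.23; limma adjusted p = 0.0332), and 0 were higher, with a median of -0.05, a count near the 7.89% of all probes.

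Partners and regulators of Hox genes were measured beside them, and their counts stand against the 7.89% of all probes called lower and 4.92% called higher. TALE homeodomain proteins (the Meis, Pbx and Pknox families) bind DNA together with Hox proteins, and 1 of 7 tested genes was lower in the jaw, Pknox1 (-1.08 ± 0.19; limma adjusted p = 0.0474), with 0 higher and a median of 0.17. Polycomb and trithorax genes, whose proteins keep Hox genes silent or active, had 1 of 19 lower, the methyltransferase gene Ezh2 (-1.95 ± 0.33; limma adjusted p = 0.0437), 0 higher and a median of 0.01. Counts of 1 in lists of this size lie near the share of all probes. Genes of retinoic acid signalling, Cdx and Gdf11, which act upstream of Hox genes in the embryo, had 4 of 9 higher in the jaw and 0 lower, with a median of 1.83. The 4 were the retinoic acid synthesis genes Aldh1a3 (3.90 ± 0.65; limma adjusted p = 0.0437) and Aldh1a2 (3.40 ± 0.60; limma adjusted p = 0.0468), the receptor gene Rarb (2.99 ± 0.50; limma adjusted p = 0.0437) and the degrading enzyme gene Cyp26b1 (1.83 ± 0.22; limma adjusted p = 0.0316). Cdx1, Cdx2 and Cdx4 were not well above background in any bone.

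Other genes of position were measured as well, against the same shares of 7.89% of all probes called lower and 4.92% called higher. Of 7 tested jaw patterning genes, Dlx2, Msx2 and Lhx8 (3) were called higher in the jaw and 0 lower, with a median of 6.21. Of a list of limb position genes (Pitx1, Tbx4, Tbx5 and Isl1), 3 were tested and 1 was called. Pitx1, which acts in both the hindlimb and the first arch, was higher in the jaw (2.82 ± 0.27; limma adjusted p = 0.0306).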

How the data were processed

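Spot intensity on a linear scale is what the authors' array files give, from Agilent Feature Extraction 9.5.3.1 (per the file headers). The processed signal was background-subtracted and spatially detrended, per the file headers, and probe positions are on mm8. The authors also deposited log2 values from GeneSpring as a series table, per the series text. Compared with the array values, a column equals the log2 ratio to the ilium plus a constant whose basis is not given in the sources used here. The column medians were -0.218 for the maxilla, -0.133 for the mandible, 0 for the ilium and 0.0233 for the femur.

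Values here are log2 of the processed signal minus each array's 75th percentile. Outlier spots were left out, and the spots of a probe were averaged. Probes well above background (on no fewer than 50% of the used spots) on at least 2 of 4 arrays were tested with limma 3.58.1 (R 4.3.3; linear fit and empirical Bayes, 2 residual and 1.86 prior degrees of freedom), with Benjamini-Hochberg adjustment over all 31116 and a threshold of 0.05. The calculation was tested on simulated data. With 1 array per bone, pairs of single bones were compared without a test, and precision is limited by the number of arrays. Where several probes name a gene of another list, the one with the highest mean stands for it.

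The Hox members and all lists were chosen with earlier results of these data known. Every Hox gene is named except 1, which is not reported here and not drawn, although counts and medians include it. Of the other lists, only members past the threshold, at most 4 of each, were to be named by largest difference. Named beyond that rule are the Cdx genes, Tbx4, Tbx5, Isl1, Ltf and genes found by position. Python 3.11.15 and pandas 2.3.3 were used. Alternatives varied the background correction, normalization, filter, source of values, outlier handling, unit of the fit and the bones included.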

Additional observations from a re-analysis of the deposited data

How the results depend on the processing

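The counts of Hox probes lower in the jaw (22 here) and the median difference (-3.28) changed with the treatment of dim signals, and the count also with the bones included. With normexp background correction 8 probes were lower, the median was -0.64, 10 probes were 2-fold apart between classes (27 here), and 1 and 2 probes were 2-fold apart between ilium and femur (7 here) and between maxilla and mandible (9 here). With probes well above background on all 4 arrays alone, these values were 3, -1.02, 3, 0 and 4. Without a filter the median was -2.21 and 14 probes were 2-fold apart between maxilla and mandible. With bounds the median was -1.93 and, in an alternative added after the data were seen, 22 probes were 2-fold apart between classes, 6 between ilium and femur and 5 between maxilla and mandible, and with 1 probe per gene 4 were 2-fold apart between ilium and femur. Leaving out 1 bone gave 0 to 28 probes lower and 0 to 2 higher, with medians of -3.46 to -3.01 and 28 to 30 probes 2-fold apart; the lone bone of a class is assumed to vary like the bones of the other class. The 0 arose without the ilium and without the femur, where limma called no probe of any gene and 24 and 28 Hox probes had an unadjusted p under 0.05. The higher probes were 1 without the maxilla and 2 without the mandible. With the series table, with median centring, with quantile normalization or with outlier probes removed, 22 to 25 Hox probes were lower and 0 higher.

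The sign changed for 4 single probes: Hoxc4 without the maxilla (-0.035; -0.035 to 3.54 over the bones left out), the Hoxa3 probe at 52099994 under normexp (0.11), without the mandible (0.32) and without the ilium (0.06; -0.42 to 0.32 over the bones left out), the Hoxa4 probe at 52120179 under normexp (0.015), and the Hoxb6 probe at 96115057 without the maxilla (-0.88; -0.88 to 1.78 over the bones left out). Without the maxilla the mandible is the only jaw array. The cause was not tested. Over all probes 38.4% of limma calls were higher in the jaw, against 27.1% with the series table; that table, quantile normalization and median centring put the median of all tested probes at -0.31, -0.14 and -0.17 (here -0.05). Normexp on these arrays put it at 0.06. No paired analysis was possible because each bone has 1 sample. Signal near background limits the size of every jaw difference given as a bound.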
